A study of Mus musculus with 16 samples.

Results

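Oxidative phosphorylation is carried out by 5 protein complexes in the inner mitochondrial membrane. Complexes I (NADH dehydrogenase), II (succinate dehydrogenase), III (cytochrome bc1 complex) and IV (cytochrome c oxidase) pass electrons to oxygen and, with the exception of complex II, pump protons, and complex V (ATP synthase) uses the proton gradient to make ATP. A small set of subunits is encoded in mitochondrial DNA and all others in the nucleus, so that both genomes have to supply the same complexes. In the small intestine this machinery supplies the enterocyte with the energy for nutrient uptake. The genes described here are the nuclear-encoded ones, chosen by name: protein-coding genes whose symbols begin with Ndufa, Ndufb, Ndufc, Ndufs, Ndufv, Uqcr, Cox4 to Cox8 or Atp5, together with Sdha, Sdhb, Sdhc, Sdhd and Cyc1, that had at least 10 counts in at least 4 libraries. Of 94 such genes, 88 met the count rule, out of 46078 genes in the table. The rule itself used no measured difference between genotypes, but the members were chosen with earlier results of these data known.

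The 88 members comprised 7 core subunits of complex I, which carry its redox centers, 30 supernumerary subunits of complex I, 8 complex I assembly factors that share the Ndufa prefix (Ndufaf1 to Ndufaf8) but are not part of the finished enzyme, 4 subunits of complex II, 9 genes of complex III, 13 of complex IV and 17 of complex V. Ndufa4 is counted with complex I by its symbol, although its protein is a subunit of complex IV. Cox7a2l is counted with complex IV. Its protein has been described as a factor that joins complexes III and IV into supercomplexes, which was not examined in these mice.

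RNA was sequenced from ileum mucosa of 16 C57Bl/6 mice. There were 4 Slfn3KO and 4 WT mice labelled female and 4 Slfn3KO and 4 WT mice labelled male, all labelled as 8 weeks of age, whereas the study's methods give an older age. Slfn3KO mice lack Schlafen 3, a gene tied to differentiation of the intestinal epithelium, in the whole animal, and WT mice were littermates. The comparison asks whether loss of Slfn3 changed expression of this energy-producing machinery.

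Libraries held 20823279 to 30813117 counts. Slfn3 itself was near the limit of detection, with 0 to 2 counts in the 8 Slfn3KO libraries and 0 to 19 in the 8 WT libraries, so it checks the genotype labels only weakly. Xist and Ddx3y went against the sex label in WT libraries 3 and 4 of both sexes. These 4 libraries also had the highest summed CPM (read counts scaled to normalized library size) of 9 B cell follicle markers, from 190.3 to 927 CPM, against 2.49 to 138 CPM in the other 12 libraries. Male and female below mean the deposited labels, under which all samples were kept, and results are given with and without these 4 WT libraries. All 10 enterocyte markers and all 8 ileal markers were above 3 counts in every library. Of 8 markers of the proximal small intestine 7 were above that count in every library. Their summed level was 110.3 to 358.6 CPM in female Slfn3KO and 175.5 to 2280 CPM in female WT mice. It was 436.4 to 1709 CPM in male Slfn3KO and 175.4 to 1085 CPM in male WT mice. Female Slfn3KO 2 was lowest and female WT 1 highest. Over all mice 1 of 8 proximal markers was higher in Slfn3KO (median log2 fold change -0.84). Of the 8 ileal markers 0 were higher (median -0.24), and their summed level ranged from 4186 to 19730 CPM over the libraries. The part of position along the intestine in the member values was not tested.

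The members differed widely in level. Levels between genes are given as RPKM (CPM per kilobase of exon), as the mean ± SD of 16 libraries. The median member stood at 68.2 RPKM, and 29 members were above 100 RPKM and 16 below 10 RPKM. Cox6b1, a small subunit at the contact between the monomers of dimeric complex IV, was highest at 664 ± 75.6 RPKM. It was followed by Cox6a1 at 466 ± 69.8 RPKM, Atp5a1, the alpha subunit of the ATP synthase catalytic head, at 460 ± 53.3 RPKM, Cox5a at 444 ± 57.0 RPKM and Atp5b, the catalytic beta subunit, at 434 ± 57.1 RPKM. These 4 neighbours lay within 1 SD of each other.

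Median levels were 176 RPKM for complex IV, 147 RPKM for complex III, 112 RPKM for complex II, 80.4 RPKM for complex V, 55.9 RPKM for the core and 51.3 RPKM for the supernumerary subunits of complex I. The assembly factors were far lower, with a median of 6.73 RPKM, from 3.38 RPKM for Ndufaf5 to 20.5 RPKM for Ndufaf8. Of the genes named as supernumerary subunits of complex I the highest was Ndufa4 at 335 ± 57.4 RPKM. In complex III the highest was Cyc1, cytochrome c1, at 257 ± 35.5 RPKM. In complex II the order was Sdhd at 237 ± 31.8 RPKM, Sdha at 124 ± 11.04 RPKM, Sdhb at 99.7 ± 14.9 RPKM and Sdhc at 58.9 ± 6.98 RPKM.

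Several constitutive subunits were listed at very low levels. The c-ring of ATP synthase is encoded by 3 genes for the same mature protein, and Atp5g3 stood at 287 ± 42.0 RPKM while Atp5g1 stood at 1.05 ± 0.211 RPKM and Atp5g2 at 0.640 ± 0.197 RPKM. Atp5l, subunit g of the same complex, stood at 1.32 ± 0.467 RPKM, Ndufab1, the mitochondrial acyl carrier protein, at 3.77 ± 0.425 RPKM and Cox7c at 7.36 ± 1.05 RPKM. These low values coincided with sequence shared with other genes. Reads were 50 bases long, and for each member the share of 50-base stretches of its coding sequence that also occur in another annotated gene was computed. It was 100% for Atp5g2, Atp5l and Ndufb4, 99.8% for Ndufab1, 99.7% for Atp5g1 and 81.9% for Cox7c, but 0% for Atp5g3.

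The 13 members with at least 50% of their coding stretches shared had a median of 7.36 RPKM and none was above 68.8 RPKM, the 17 members with 10 to 50% had a median of 57.5 RPKM, and the 58 members under 10% had a median of 81.9 RPKM. The command in the table's header has no option to count reads that align to several places, and featureCounts leaves such reads out by default. Levels of the 13 members are therefore uncertain, although each was measured the same way in every library. Their median log2 fold change between genotypes was 0.05, with 11 of 13 higher in Slfn3KO, and that of the 58 members under 10% was 0.03, with 44 of 58 higher.

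**Figure D1:**
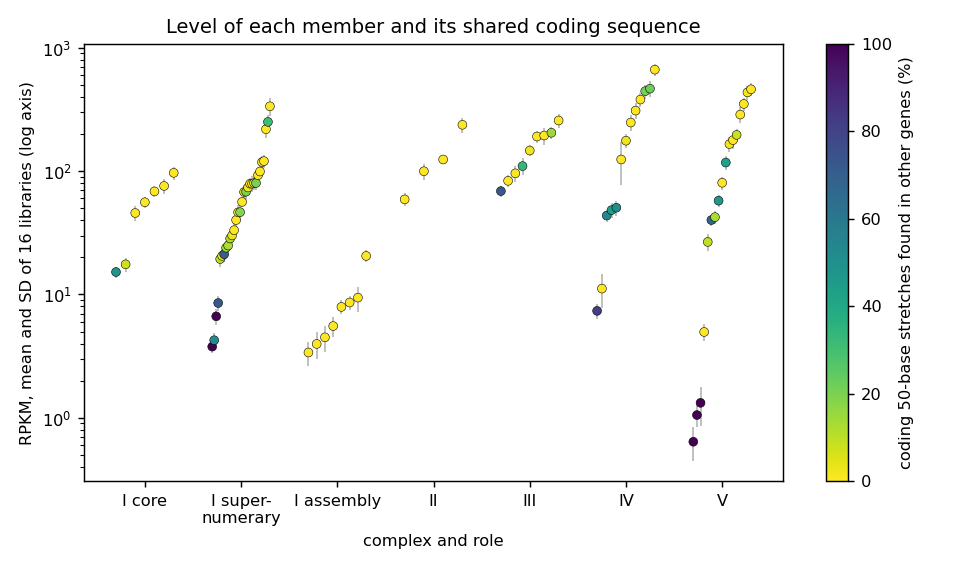
RPKM of each of the 88 members (points, mean of 16 libraries; bars, SD; log axis) by complex and role, colored by the share of coding 50-base stretches found in other genes. The darkest points, such as Atp5g2 at 0.640 RPKM and Atp5l at 1.32 RPKM, lie at the bottom of their complexes, whereas the low assembly factors, with a median of 6.73 RPKM, are not dark.

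Tissue-restricted isoforms showed which version of a subunit the mucosa used. In complex IV, Cox4i1 stood at 380 ± 51.0 RPKM while the lung isoform Cox4i2 had at most 5 counts in any library. Cox6a1 was high while the heart and muscle isoform Cox6a2 had at most 5 counts. Cox8a stood at 309 ± 46.7 RPKM, the muscle isoform Cox8b had at most 3 counts and Cox8c had 0 in all libraries. Cox7b2 also had 0, and Ndufa4l2, the paralog of Ndufa4 induced by low oxygen, had at most 3 counts. These 6 genes are those that failed the count rule, and a count of 0 allows a level of up to 0.0974 to 0.144 CPM at these depths, for counting error only.

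Other paralog pairs were both present. Cox7a1, known as the heart and muscle isoform, stood at 124 ± 47.5 RPKM beside the liver isoform Cox7a2 at 247 ± 34.9 RPKM. Cox6b2, known from testis, stood at 11.2 ± 3.39 RPKM beside Cox6b1. Cox7a1 and Cox6b2 varied most of all members between libraries, with an SD on the log2 CPM scale of 0.58 and 0.55, and none of their coding stretches was shared with other genes.

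Promoters were inspected for recognition motifs of factors known to control nuclear genes of mitochondria. RefSeq (GRCm38.p6) gave a 300-base window, from 250 bases before to 50 after the start, for 72 of the 88 members. The motif of NRF1, CGCATGCG, was present on either strand in 11 of 72 (15.3%), against 2.07% of 27025 genes with such a window and 2.77% of 17491 protein-coding genes. The YY1 motif AAGATGGC was present in 10 members (13.9%, against 3.19% of all genes and 3.57% of protein-coding genes) and the ETS family motif CCGGAAGT, bound by GABPA, in 5 (6.9%, against 4.31% and 5.69%). The CREB motif TGACGTCA was present in 4 (5.6%, against 2.03% and 2.54%) and the estrogen-related receptor motif TCAAGGTCA in 2 (2.8%, against 0.466% and 0.377%). A match is a description of these letters and not a measured binding site.

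The 3 promoters below are shown because Atp5j holds both the NRF1 and the YY1 motif, Uqcr11 both the NRF1 and the ETS motif, and Ndufaf4 is the member with the smallest p for the difference between the labelled sexes. Capitals mark those motifs, which do not overlap here, and each sequence runs 5′ to 3′ along its gene. Atp5j (coupling factor 6 of complex V) lies at chr16:84834927-84835226 on the minus strand, Uqcr11 (a small complex III subunit) at chr10:80406772-80407071 on the minus strand, and Ndufaf4 at chr4:24897833-24898132 on the plus strand.
Atp5j: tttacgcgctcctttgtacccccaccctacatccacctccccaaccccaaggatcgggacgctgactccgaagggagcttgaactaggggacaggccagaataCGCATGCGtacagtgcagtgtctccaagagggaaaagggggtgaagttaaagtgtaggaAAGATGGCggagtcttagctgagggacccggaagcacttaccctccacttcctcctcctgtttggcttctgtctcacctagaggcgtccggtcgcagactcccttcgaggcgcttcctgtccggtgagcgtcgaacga
Uqcr11: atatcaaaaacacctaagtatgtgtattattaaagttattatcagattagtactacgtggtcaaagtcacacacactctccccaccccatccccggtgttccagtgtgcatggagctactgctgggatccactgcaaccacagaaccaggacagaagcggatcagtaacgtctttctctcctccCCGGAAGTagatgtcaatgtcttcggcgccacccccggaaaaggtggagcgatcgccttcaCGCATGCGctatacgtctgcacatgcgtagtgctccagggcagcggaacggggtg
Ndufaf4: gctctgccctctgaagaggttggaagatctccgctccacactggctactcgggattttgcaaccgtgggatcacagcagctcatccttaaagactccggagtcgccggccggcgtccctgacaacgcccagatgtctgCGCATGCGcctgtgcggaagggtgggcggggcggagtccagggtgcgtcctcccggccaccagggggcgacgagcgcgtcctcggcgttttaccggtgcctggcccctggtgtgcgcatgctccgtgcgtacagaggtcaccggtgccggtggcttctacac

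In the genotype comparison members with and without these motifs had close values. The 24 members with at least 1 of the NRF1, ETS or YY1 motifs had a median log2 fold change of 0.06, with 19 of 24 higher in Slfn3KO, and the 48 with none had a median of 0.04, with 35 of 48 higher.

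Across libraries most members rose and fell together. Each member was expressed as its log2 CPM (prior count 2) minus its own mean over 16 libraries, and the median over members was taken in each library. Over the 16 libraries these medians had an SD of 0.16 and a range of 0.65. The lowest and the highest were both WT mice labelled male: male WT 3 at -0.39, where 87 of 88 members were below their own mean, and male WT 1 at 0.25, where 87 of 88 were above it. Female WT 4 stood at -0.16 with 84 of 88 members below their mean.

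The genotypes overlapped throughout. In female Slfn3KO mice 1 to 4 the medians were 0.08, 0.10, -0.04 and -0.09, and in female WT mice 1 to 4 they were 0.16, 0.03, -0.12 and -0.16. In male Slfn3KO mice they were -0.06, 0.08, -0.03 and 0.20, and in male WT mice 0.25, 0.14, -0.39 and -0.13. The mean of the 8 Slfn3KO libraries was 0.03 ± 0.10 (SD, n = 8) and that of the 8 WT libraries -0.03 ± 0.21 (SD, n = 8), a difference smaller than either SD. The share of all counts that fell on members was 1.55 ± 0.168% with Slfn3KO and 1.39 ± 0.100% with WT genotype among mice labelled female, and 1.46 ± 0.0288% and 1.397 ± 0.253% among mice labelled male (mean ± SD, n = 4 each). The ranges of the 2 genotypes overlapped in both sexes.

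The 4 lowest libraries were WT libraries 3 and 4 of both sexes, the same 4 with the highest summed B cell follicle markers (453 CPM and 599 CPM in female WT 3 and 4, 927 CPM and 190.3 CPM in male WT 3 and 4). All 9 follicle markers had a lower level in Slfn3KO over all 16 mice, with a median log2 fold change of -3.01, and 6 of 9 had more than 3 counts in every library. Their part in the member profile was not tested. In bulk tissue, fewer cells of a type cannot be told apart from less RNA per cell. The summed level of the 10 enterocyte markers was 15334 to 36813 CPM in female Slfn3KO, 25586 to 75573 CPM in female WT, 36933 to 64202 CPM in male Slfn3KO and 28982 to 56493 CPM in male WT mice. The mean deviation of these markers had the same sign as the median deviation of the members in 10 of 16 libraries. Among these were female WT 1 (1.39 for the markers and 0.16 for the members), male Slfn3KO 4 (1.25 and 0.20) and male WT 3 (-0.90 and -0.39). The signs were opposite in 6, among them female Slfn3KO 1 and 2. Those 2 had the lowest summed enterocyte markers of all libraries (19687 and 15334 CPM) and member medians of 0.08 and 0.10. The part of enterocytes in the member profile was not tested either.

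**Figure D2:**
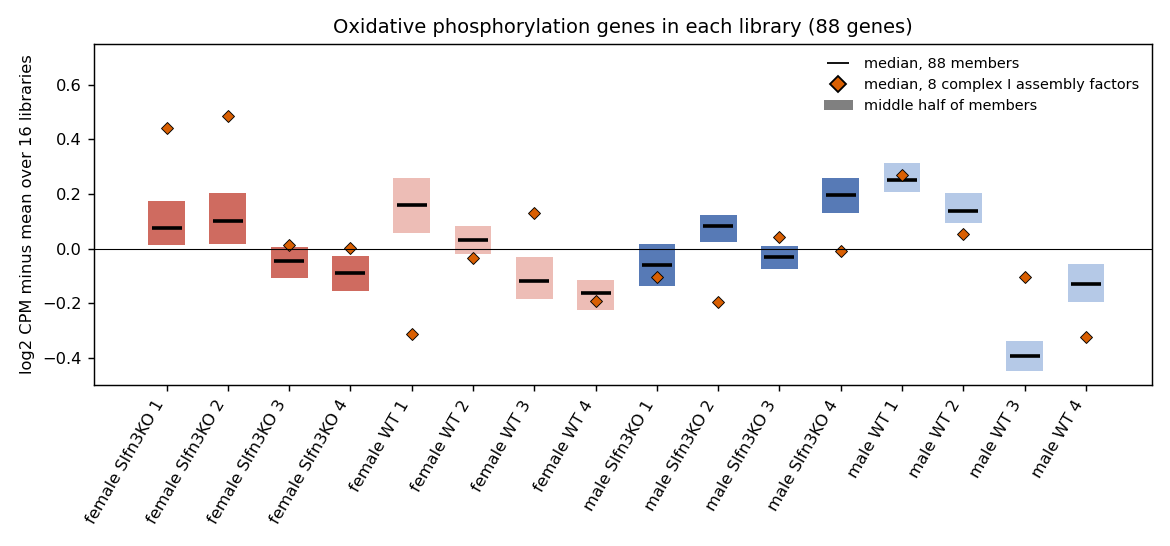
Member profile of each library: log2 CPM minus each member's mean over 16 libraries, with the median (black line) and interquartile range (bar) of 88 members, and the median of the 8 complex I assembly factors (diamond). Male WT 3 lies lowest at -0.39 and male WT 1 highest at 0.25. The assembly factors leave the bar upward in female Slfn3KO 1 and 2 (0.44 and 0.49) and downward in female WT 1 (-0.31). Among other libraries, they also leave it upward in female WT 3 (0.13) and male WT 3 (-0.11). They leave it downward in male Slfn3KO 2 (-0.20) and male WT 4 (-0.32).

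Most members varied less between libraries than the median gene tested. The median SD of log2 CPM over 16 libraries was 0.19 for members and 0.32 for all 14822 genes tested, and 82 of 88 members were below the latter value. Members and all genes were not matched for level, and Atp5l and Atp5g2, members of few reads, had SDs of 0.45 and 0.44. After subtraction of the library median the members' median SD was 0.09. Sdha, the flavoprotein subunit of succinate dehydrogenase, varied least of all members, with an SD of 0.13. After subtraction of the library profile Cox6b1 kept an SD of 0.04. Some members did not follow the profile. Their SD was larger after the subtraction, as in Cox6b2 (0.61 instead of 0.55), Ndufaf4 (0.33 instead of 0.32) and Ndufaf7 (0.28 instead of 0.27).

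No member passed the test of Slfn3KO against WT over all 16 mice. With edgeR's quasi-likelihood test and sex as a covariate, 0 of 88 members had an adjusted p under 0.05 (Benjamini-Hochberg over 14822 genes; 0% of all genes passed), and DESeq2 also called 0 members, beside 0.452% of all genes called by DESeq2. The median log2 fold change of members was 0.04, beside -0.00365 for all genes tested, and 65 of 88 members were higher in Slfn3KO. At an unadjusted p under 0.05, 2 of 88 members were higher and 0 lower, beside 4.84% of all genes higher and 7.1% lower, so the share of members was no larger than that of all genes. In 86 of 88 members the log2 fold change was within 0.25 of 0, and its SE ranged from 0.07 to 0.26 with a median of 0.10.

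By role, all 7 complex I core subunits were above 0 (median log2 fold change 0.05), as were 23 of 30 supernumerary subunits (0.05) and all 8 assembly factors (0.13). In complex II 0 of 4 were above 0 (-0.01), in complex III 5 of 9 (0.01), in complex IV 9 of 13 (0.03) and in complex V 13 of 17 (0.02). None of these members passed the adjusted threshold.

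Without WT libraries 3 and 4 of both sexes, the median log2 fold change of members was -0.13, beside 0.01 for all genes, and 11 of 88 members were higher in Slfn3KO instead of 65. At an unadjusted p under 0.05, 0 members were higher and 9 lower, beside 2.7% of all 15093 genes higher and 3.1% lower, and 0 had an adjusted p under 0.05 (edgeR). The 9 came from every complex: Ndufa3 and Ndufb3 of complex I, Sdhb of complex II, Uqcrq of complex III, Cox7a1 and Cox8a of complex IV and Atp5g3, Atp5k and Atp5o of complex V. The smallest p was that of Ndufb3, with a log2 fold change of -0.27 ± 0.08 (SE) and an adjusted p of 0.761 in edgeR's test. Of the 8 assembly factors 7 were still above 0, against 4 of the other 80 members. A single library, male WT 3, was enough to bring the count of higher members from 65 to 40 and the median to -0.00650.

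**Figure D3:**
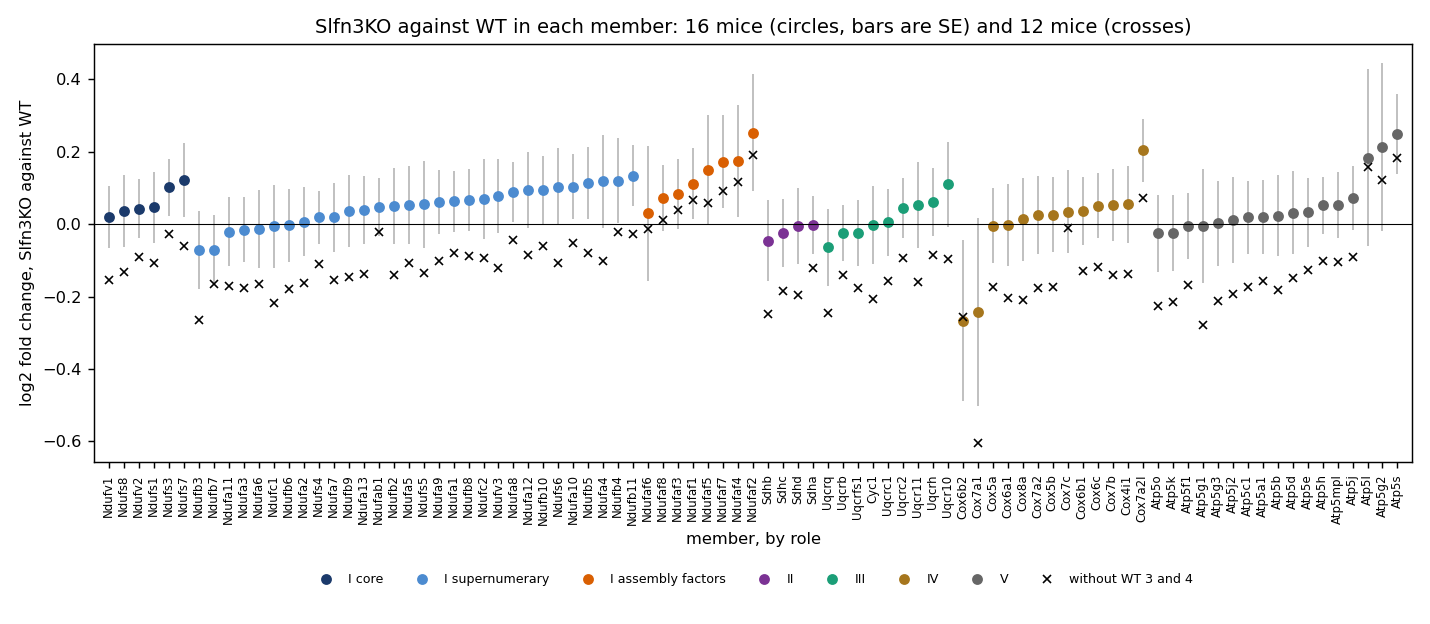
Log2 fold change, Slfn3KO against WT, of 87 of the 88 members by role (circles, all 16 mice; bars, SE; crosses, the 12 mice left without WT libraries 3 and 4 of both sexes). Over all 88 members the value was above 0 in 65 with all mice and in 11 without those libraries, so the direction of the whole set depends on those 4 libraries.

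Cox7a2l, on chromosome 17 (83501918 to 83517330, GRCm38), had the smallest p over all 16 mice. Its level was 52.8, 65.7, 59.95 and 50.8 CPM in female Slfn3KO mice 1 to 4 and 59.2, 59.2, 48.4 and 48.9 CPM in female WT mice 1 to 4. It was 72.0, 68.3, 61.4 and 65.5 CPM in male Slfn3KO and 58.0, 58.0, 41.9 and 56.2 CPM in male WT mice. The female groups overlapped, whereas every male Slfn3KO mouse was above every male WT mouse. The log2 fold change was 0.20 ± 0.09 (SE; edgeR, unadjusted p = 0.0323, adjusted p = 0.373) over all mice and 0.33 ± 0.11 (edgeR, unadjusted p = 0.0181, adjusted p = 0.925) in males, and it was 0.07 over all mice without the 4 WT libraries. Its coding sequence shares 50.9% of its 50-base stretches with 1 annotated pseudogene.

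Atp5s, coupling factor B of ATP synthase, on chromosome 12 (69724950 to 69744660), was the other member with an unadjusted p under 0.05. It stood at 8.22, 10.02, 8.35 and 6.74 CPM in female Slfn3KO and 5.07, 7.45, 6.38 and 5.96 CPM in female WT mice. It stood at 8.00, 6.90, 7.63 and 8.12 CPM in male Slfn3KO and 8.18, 7.36, 6.70 and 6.82 CPM in male WT mice. The groups overlapped in both sexes, and the log2 fold change was 0.25 ± 0.11 (SE; edgeR, unadjusted p = 0.0402, adjusted p = 0.393) over all mice.

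The 4 subunits of complex II also serve the citric acid cycle. Their median log2 fold change was -0.01 over all 16 mice and -0.19 without the 4 WT libraries, with 0 of 4 above 0 in both. Sdha stood at 470, 460, 505 and 493 CPM in female Slfn3KO and 523, 461, 448 and 468 CPM in female WT mice, and at 436, 509, 468 and 509 CPM in male Slfn3KO and 532, 575, 399 and 452 CPM in male WT mice. The 4 groups overlapped and the log2 fold change was -0.00276 ± 0.08 (SE; edgeR, adjusted p = 0.991). Sdhb, Sdhc and Sdhd had log2 fold changes of -0.05 ± 0.11, -0.02 ± 0.09 and -0.00413 ± 0.10 (SE), and in each the 8 Slfn3KO values lay within the range of the 8 WT values.

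At the ends of the other groups, Ndufs7 was the highest core subunit by log2 fold change at 0.12 ± 0.10 (SE) and Ndufv1, the NADH-binding subunit, the lowest at 0.02 ± 0.09. Among supernumerary subunits Ndufb11 was highest at 0.13 ± 0.08 and Ndufb3 lowest at -0.07 ± 0.11. In complex III Uqcr10 was highest at 0.11 ± 0.12 and Uqcrq lowest at -0.06 ± 0.11. In complex V the lowest was Atp5o, a stalk subunit, at -0.02 ± 0.11. In complex IV Cox6b2 was lowest at -0.27 ± 0.22. For each of these the unadjusted p was 0.133 or more (edgeR).

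In mice labelled male, 0 of 88 members had an adjusted p under 0.05 by edgeR (14124 genes; 0% of all genes), and DESeq2 called 0 members, beside 0.104% of all genes called by DESeq2. The median log2 fold change was 0.05, beside -0.00165 for all genes, and 62 of 88 members were higher in Slfn3KO. At an unadjusted p under 0.05, 1 member was higher (Cox7a2l) and 0 lower, beside 1.86% of all genes higher and 1.98% lower. Cox7a2l was also the 1 member whose male groups did not overlap, beside 1.13% of all genes with all Slfn3KO above all WT values and 1.23% below. Without male WT 3 and 4 the median was -0.15 and 7 of 88 members were higher, and without male WT 3 alone 26 of 88 were higher.

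In mice labelled female, 0 of 88 members had an adjusted p under 0.05 by edgeR (14064 genes; 0% of all genes), and DESeq2 called 0 members, beside 4.03% of all genes called by DESeq2. The median log2 fold change was 0.03, beside -0.00983 for all genes, and 56 of 88 members were higher in Slfn3KO. At an unadjusted p under 0.05, 4 members were higher and 0 lower, beside 8.58% of all genes higher and 8.56% lower. The Slfn3KO values lay above all WT values in 2 members, Ndufa10 and Ndufs1, and below them in 0, beside 4.86% of all genes above and 3.03% below. Ndufs1, the largest core subunit of complex I, stood at 146 to 151 CPM in female Slfn3KO and 131 to 144 CPM in female WT mice, a log2 fold change of 0.13 ± 0.08 (SE). Without female WT 3 and 4 the median of members was -0.10 and 25 of 88 were higher.

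Of the 4 members that passed the unadjusted threshold in females, 3 were complex I assembly factors, proteins that build complex I and are absent from the finished enzyme. Ndufaf4 (chromosome 4, 24898083 to 24905001) stood at 24.3, 27.0, 17.7 and 18.3 CPM in female Slfn3KO mice 1 to 4 and 11.5, 16.4, 19.4 and 13.6 CPM in female WT mice 1 to 4. It stood at 14.4, 13.7, 17.7 and 16.5 CPM in male Slfn3KO and 21.2, 18.3, 16.8 and 13.6 CPM in male WT mice. Female Slfn3KO 1 and 2 were above all other libraries, and the groups overlapped in both sexes. The log2 fold change was 0.51 ± 0.20 (SE; edgeR, unadjusted p = 0.0285, adjusted p = 0.273) in females and -0.17 ± 0.16 in males.

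Ndufaf2 (chromosome 13, 108002715 to 108158623) stood at 8.43, 9.86, 6.14 and 6.26 CPM in female Slfn3KO and 4.02, 5.38, 6.75 and 4.99 CPM in female WT mice. Its log2 fold change was 0.53 ± 0.22 (SE; edgeR, unadjusted p = 0.0412, adjusted p = 0.283) in females and -0.03 ± 0.20 in males. Ndufaf7, an arginine methyltransferase (chromosome 17, 78937136 to 78948052), stood at 17.2, 17.6, 13.8 and 13.4 CPM in female Slfn3KO and 10.8, 11.1, 13.9 and 10.9 CPM in female WT mice. Its log2 fold change was 0.40 ± 0.14 (SE; edgeR, unadjusted p = 0.0188, adjusted p = 0.255) in females and -0.06 ± 0.18 in males. In both genes female WT 3 was the only female WT mouse within the range of the Slfn3KO group.

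As a group, 7 of 8 assembly factors were higher in female Slfn3KO (median log2 fold change 0.32) and 1 of 8 was higher in male Slfn3KO (-0.06), Ndufaf8 being the exception in both. The other 80 members had medians of 0.02 in females and 0.06 in males. The assembly factors' library medians were 0.44, 0.49, 0.01 and 0.00370 in female Slfn3KO mice and -0.31, -0.04, 0.13 and -0.19 in female WT mice. They were -0.11, -0.20, 0.04 and -0.00880 in male Slfn3KO mice and 0.27, 0.05, -0.11 and -0.32 in male WT mice.

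The 8 crypt proliferation markers, genes of DNA replication and mitosis that mark dividing cells, were one of several cell type lists whose level differed among the same libraries as that of the assembly factors. Among mice labelled female their summed level was 413 to 642 CPM with Slfn3KO and 161 to 508 CPM with WT genotype, among those labelled male it was 279.9 to 402 CPM and 196 to 486 CPM, and all 8 had more than 3 counts in every library. Female Slfn3KO 1 and 2 had the highest sums (642 CPM and 547 CPM), and female WT 1 and male WT 4 the lowest (161 CPM and 196 CPM), which were also the libraries with the highest and the lowest medians of assembly factors. Over all 16 mice 8 of 8 of these markers were higher in Slfn3KO, with a median log2 fold change of 0.18.

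The 6 Paneth cell markers, genes of the antimicrobial cells at the crypt base, differed more. Their summed level was 5325 to 11139 CPM in female Slfn3KO, 924 to 4803 CPM in female WT, 3741 to 5641 CPM in male Slfn3KO and 1024 to 6475 CPM in male WT mice, without overlap between the female groups. All 6 were higher in Slfn3KO over all 16 mice, with a median log2 fold change of 1.04. Their mean deviation was highest in female Slfn3KO 1 and 2 (1.35 and 1.47) and lowest in female WT 1 (-1.95). Of 5 stem cell markers 4 were higher in Slfn3KO, with a median log2 fold change of 0.77. The enterocyte markers, of which 0 of 10 were higher (median -0.45), had their lowest sums in female Slfn3KO 1 and 2 (19687 and 15334 CPM) and their highest in female WT 1 (75573 CPM). The part of crypt, Paneth, stem and absorptive cells in the assembly factor values was not tested.

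**Figure D4:**
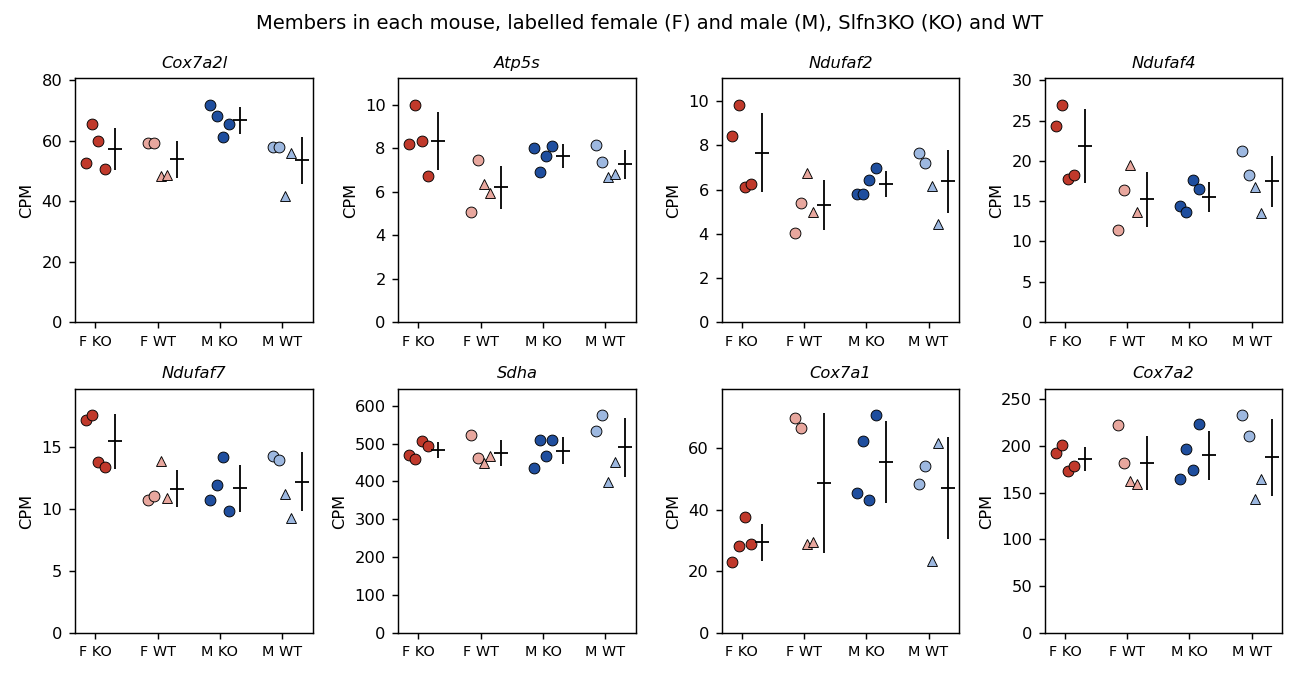
CPM in each mouse for 8 members (circles; triangles, WT libraries 3 and 4) by labelled sex and genotype, with mean and SD of 4 mice beside each group and axes starting at 0. Cox7a2l lies above all male WT mice in every male Slfn3KO mouse (61.4 to 72.0 against 41.9 to 58.0 CPM), Ndufaf4 is highest in 2 female Slfn3KO mice (24.3 and 27.0 CPM), and the 4 groups overlap in Sdha.

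The difference between the labelled sexes in the Slfn3KO effect (female minus male) was tested directly. At an adjusted p under 0.05, 0 of 88 members passed by edgeR (14822 genes; 0% of all genes), and DESeq2 called 0 members, beside 0.0987% of all genes called by DESeq2. The median of members was -0.04, beside 0.00629 for all genes, and 40 of 88 were above 0. At an unadjusted p under 0.05, 1 member was above 0 and 0 below, beside 5.8% of all genes above and 5.26% below. That member was Ndufaf4, with a difference of 0.69 ± 0.26 on the log2 scale (SE; edgeR, unadjusted p = 0.0199, adjusted p = 0.441). Cox7a1 stood at -0.96 ± 0.47 and Ndufaf7 at 0.47 ± 0.23, neither under the unadjusted threshold with all 16 mice. Of the assembly factors 7 of 8 were above 0 with a median of 0.45, beside 33 of 80 for the other members with a median of -0.05. Without male WT 1 the count of members above 0 went from 40 to 21.

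Without WT libraries 3 and 4 of both sexes, which leaves 2 WT mice of each label, the signs of this difference were distributed otherwise. Of 88 members 56 were above 0, with a median of 0.05, and 0 had an adjusted p under 0.05 (edgeR), beside 2.46% of all 15093 genes. At an unadjusted p under 0.05, 7 members were above 0 and 3 below, beside 14.4% of all genes above and 12.5% below. The 7 above were all of complex I, the subunits Ndufa10, Ndufa12 and Ndufs1 and the assembly factors Ndufaf1, Ndufaf2, Ndufaf4 and Ndufaf7, and the 3 below were Ndufa6, Ndufb3 and Cox7a1. The smallest p was that of Cox7a1, with a difference of -1.32 ± 0.32 (SE; edgeR, unadjusted p = 0.00153, adjusted p = 0.0520), followed by Ndufaf4 at 0.99 ± 0.27 (edgeR, unadjusted p = 0.00408, adjusted p = 0.0646).

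Cox7a1 had the lowest log2 fold change of any member in females. It stood at 22.9, 28.2, 37.7 and 29.1 CPM in female Slfn3KO and 69.9, 66.8, 28.9 and 29.4 CPM in female WT mice, so that female WT 1 and 2 were far above and female WT 3 and 4 within the range of the Slfn3KO mice. In males it stood at 45.4, 62.3, 43.3 and 70.8 CPM in Slfn3KO and 48.5, 54.4, 23.5 and 61.9 CPM in WT mice. The log2 fold change was -0.73 ± 0.33 (SE) in females and 0.24 ± 0.28 in males. Against female WT 1 and 2 alone it was -1.22 ± 0.19 in females (SE; edgeR, unadjusted p = 0.000416, adjusted p = 0.109), and against male WT 1 and 2 alone it was 0.11 ± 0.21 in males. Its broadly used paralog Cox7a2 showed no such pattern, with log2 fold changes of 0.03 ± 0.13 in females and 0.02 ± 0.17 in males. The summed proximal small intestine markers differed among the same libraries as Cox7a1. They stood at 2280 and 700 CPM in female WT 1 and 2 and 175.5 and 247 CPM in female WT 3 and 4. In female Slfn3KO mice they stood at 110.3 to 358.6 CPM. Among mice labelled male they were lowest in male WT 3 (175.4 CPM) and highest in male Slfn3KO 4 (1709 CPM), as was Cox7a1. The part of position along the intestine in Cox7a1 was not tested.

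In both sexes together, 31 members were higher in Slfn3KO in females and in males, 1 was lower in both (Cox6b2), 31 were higher in males and lower in females, and 25 the reverse. These signs describe fold changes that mostly lay within their SE.

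**Figure D5:**
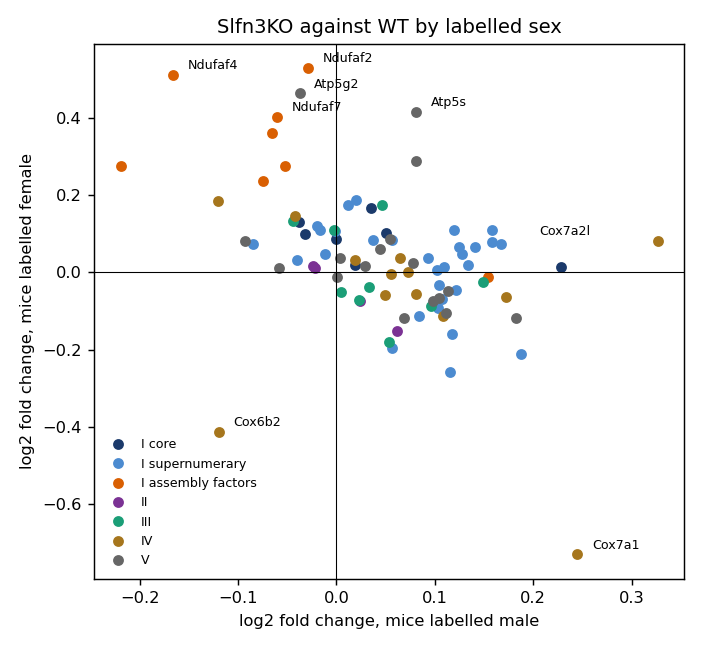
Log2 fold change, Slfn3KO against WT, of each member in mice labelled male (horizontal axis) and female (vertical axis), colored by role. Of the 8 assembly factors 7 lie at the upper left, as Ndufaf4 at -0.17 and 0.51, with Ndufaf8 at 0.15 and -0.01 the exception, Cox7a2l lies at the far right at 0.33 and 0.08, and Cox7a1 at the bottom at 0.24 and -0.73.

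The remaining genes of the pathway did not pass the test either. Of 13 subunits encoded in mitochondrial DNA, 7 could be tested over all 16 mice, and 0 had an adjusted p or an unadjusted p under 0.05 in edgeR's test. Their median log2 fold change was 0.09, from -0.06 for mt-Nd6 to 0.11 for mt-Nd1. Among the others mt-Nd3, mt-Nd4l, mt-Co2, mt-Co3 and mt-Atp8 were listed at 0 counts in all 16 libraries and mt-Atp6 at group means of 0.0985 to 0.184 CPM, whereas mt-Co1 stood at 8818 to 9823 CPM. Of their 50-base stretches 98.8% in mt-Nd4l, 98.0% in mt-Nd3, 100% in mt-Co2, 99.9% in mt-Co3 and 99.5% in mt-Atp6 also occur in annotated pseudogenes. The share was 62.2% in mt-Nd4, 51.1% in mt-Co1, 8.2% in mt-Nd2 and 7.6% in mt-Nd5. It was 0% in mt-Atp8, mt-Nd1, mt-Nd6 and mt-Cytb. The 7 measured genes did not follow the nuclear members in every library: in male WT 3 their median deviation was -0.59 beside -0.39 for the members, but in male WT 4 it was 0.41 beside -0.13.

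Of 31 assembly factors of complexes II to V tested over all 16 mice, 17 were higher and 14 lower in Slfn3KO, 1 of them with an unadjusted p under 0.05, with a median log2 fold change of 0.00482 (Cox20 highest at 0.24, Sco2 lowest at -0.49). Of 13 citric acid cycle genes 7 were higher, with a median of 0.02 (Fh1, fumarase, highest at 0.17 and Ogdh lowest at -0.23). Of 15 regulators of mitochondrial genes 8 were higher, with values from -0.11 for Gabpb1 to 0.38 for Esrrg. Of the factors whose motifs were searched, Nrf1 had a log2 fold change of -0.06 ± 0.06 (SE), Gabpa -0.03 ± 0.08, Yy1 -0.03 ± 0.06, Esrra -0.07 ± 0.15 and Esrrg 0.38 ± 0.31 over all mice. For the difference between the labelled sexes, 1 of 15 regulators was above 0 and 1 below at an unadjusted p under 0.05, beside 5.8% and 5.26% of all genes. Ppargc1b, named after its value was seen, stood at 0.85 ± 0.28 (SE; edgeR, unadjusted p = 0.00833, adjusted p = 0.441), with 0.52 ± 0.19 in females. Esrra stood at -0.64 ± 0.26 (SE; edgeR, unadjusted p = 0.0259, adjusted p = 0.441), with -0.40 ± 0.19 in females. In females 3 regulators were higher and 1 lower at that threshold, beside 8.58% and 8.56% of all genes. None of these genes had an adjusted p under 0.05 in edgeR's test with all libraries. For the difference between the labelled sexes without WT libraries 3 and 4, Sco2 at -2.11 ± 0.45 (SE; edgeR, adjusted p = 0.0443) and Fh1 at 0.72 ± 0.14 (SE; edgeR, adjusted p = 0.0433) passed, beside 2.46% of all genes, and both were named after their values were seen.

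Ribosomal protein genes leaned the same way as the assembly factors in females. Of 77 mitochondrial ribosome genes tested, 67 were higher in Slfn3KO over all 16 mice (median log2 fold change 0.08), 66 in females (0.19, with 14 higher and 0 lower at an unadjusted p under 0.05) and 36 in males (-0.00865). Of 77 cytosolic ribosome genes 74 were higher over all 16 mice (0.20), 77 in females (0.32) and 57 in males (0.08). The 14 of 77 in females stand beside 8.58% of all genes. Without WT libraries 3 and 4 the mitochondrial ribosome genes had a median of -0.01 over all mice, 0.21 in females (60 of 77 higher) and -0.18 in males (7 of 77 higher). The cytosolic ribosome genes then had a median of 0.16 over all mice, 0.45 in females (77 of 77 higher) and -0.10 in males (18 of 77 higher). None of these genes had an adjusted p under 0.05 in Slfn3KO against WT, over all mice or in either sex, with or without those libraries (edgeR). For the difference between the labelled sexes without those libraries 3 of 77 mitochondrial ribosome genes had one, beside 2.46% of all genes. These were Mrpl3 at 1.02 ± 0.19, Mrps28 at 1.27 ± 0.28 and Mrps5 at 0.82 ± 0.19 (SE), named after their values were seen.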

How the data were processed

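Ileum mucosa RNA of 16 mice was sequenced by the authors as single 50-base reads, aligned to mm10 and deposited as 1 table of raw counts per gene. The study's methods name HTSeq, whereas the file header names featureCounts with reverse-stranded counting. Gene symbols came from GENCODE M21 (45229 of 46078 identifiers matched).

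Counts were tested in R 4.3.3 with edgeR 4.0.16 (TMM, filterByExpr over the groups in each fit, robust quasi-likelihood F test). The tests ran over all genes, with Benjamini-Hochberg adjustment and a threshold of 0.05. Each SE was derived from the fold change and its F statistic. Alternatives were DESeq2 1.42.0, RLE factors, other filters, other covariates, the replicate block, each mouse left out and WT libraries 3 and 4 left out. The fits were tested on simulated data. The deviations of same-numbered Slfn3KO and WT mice had correlations over genes of 0.138 to 0.518 in males and -0.362 to 0.143 in females. All were above 0 in males, signs were mixed in females, and the ranges overlapped. The tests printed above did not pair mice by number in either sex. The replicate number entered as a block only in an alternative fit, which was run for every comparison.

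The members and lists were chosen with earlier results of these data known. Named members were, in each role, the highest and lowest log2 fold change and highest RPKM, those with an unadjusted p under 0.05, complex II, isoform sets and the 3 smallest p in each sex and in their difference; Ndufa10, Ndufs1 and members left after omission of libraries were named after their values were seen. The values of 1 member are not reported here.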

Additional observations from a re-analysis of the deposited data

Results flagged for a closer look

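In 3 of 88 groups of 4 libraries examined (22 measures in 4 groups), 1 library lay far from the other 3 by Dixon's criterion for 4 samples (gap to the nearest other over the whole range), and chance alone gives about 1 in 20. Ndufaf7 stood at 13.9 CPM in female WT 3, above the other 3 female WT libraries (10.8 to 11.1 CPM). Cox7a2l stood at 41.9 CPM in male WT 3, below the other 3 male WT libraries (56.2 to 58.0 CPM). Atp5l stood at 1.28 CPM in male Slfn3KO 4, above the other 3 male Slfn3KO libraries (0.577 to 0.674 CPM), at a level of few reads.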

How the results depend on the processing

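No member reached an adjusted p under 0.05 (edgeR or DESeq2) in any of the 4 comparisons under any alternative, and Cox7a2l, Atp5s, Ndufaf2, Ndufaf4 and Ndufaf7 kept their direction in each comparison for which a p is printed above. What changed was the number of members above 0. Without WT libraries 3 and 4 it went from 65 to 11 over all mice, from 62 to 7 in males, from 56 to 25 in females and, in the other direction, from 40 to 56 for the difference between sexes. The median in males went from 0.05 to -0.15 and that of the difference from -0.04 to 0.05, and the members under an unadjusted p of 0.05 went from 1 to 10 for the difference. With each mouse left out in turn it ranged from 40 to 81 over all mice, 26 to 83 in males, 40 to 76 in females and 21 to 59 for the difference between sexes. The lowest counts came without male WT 3 over all mice and in males, without female WT 4 in females and without male WT 1 for the difference. The medians then ranged from -0.00650 to 0.07, -0.05 to 0.15, -0.02 to 0.10 and -0.15 to 0.08. Fits with the replicate number as a block called 0 members as well, with 75, 66, 57 and 38 members above 0 and medians of 0.05, 0.07, 0.04 and -0.05, and changed no call in males. In females 0 instead of 4 members then had an unadjusted p under 0.05. Leaving out each mouse moved the members at an unadjusted p under 0.05 from 2 to between 0 and 3 over all mice, from 1 to between 0 and 1 in males, from 4 to between 0 and 5 in females and from 1 to between 0 and 5 for the difference. Genes with shared sequence and genes of few reads (Atp5l, Atp5g2) limit what the counts can show.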
